A study of Mus musculus with 6 samples.

Results

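The genes that make, carry, sense and remove retinoic acid were compared between 2 fractions of glial cells sorted from the neonatal mouse cerebellum. The set holds 9 genes, Aldh1a1, Aldh1a2, Aldh1a3, Crabp1, Crabp2, Rbp4, Rarb, Cyp26b1 and Stra6, chosen by name and represented by 11 of the 55681 non-control probes on the array, which carry 34836 gene names in all. Rarb had 3 probes and each of the other 8 genes had 1.

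Retinoic acid is a signaling molecule made from vitamin A. Retinol travels in blood on the carrier protein encoded by Rbp4, can enter cells through the receptor encoded by Stra6, is oxidized to retinal and then to retinoic acid by the retinaldehyde dehydrogenases of the Aldh1a family, and is bound inside the cell by the proteins encoded by Crabp1 and Crabp2. Retinoic acid acts through nuclear receptors, among them the one encoded by Rarb, itself a classical target gene, and is broken down by the Cyp26 enzymes. In the developing brain the meninges are a known site of retinoic acid synthesis.

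Both fractions came from wild-type CD1 mice, labeled as postnatal days 1 to 3, and each had 3 samples of 50000 cells described as biological replicates, with 1 array per sample. ACSA-2 is a surface antigen of astrocytes and GLAST is the glial glutamate transporter. A+/G+ cells were ACSA-2 positive and GLAST positive and were taken with anti-ACSA-2 beads, so that rare cells with ACSA-2 but no GLAST stayed with them. A-/G+ cells were ACSA-2 negative and GLAST positive, and were selected for GLAST after cells with ACSA-2 and with markers of neurons, leukocytes and red cells had been removed. The paper describes no such removal for the A+/G+ cells. Cells of pooled cerebella were used, and neither fraction carried a transgene according to the labels. The 10 astroglial markers, among them Slc1a3, Slc1a2 and Aldh1l1, were detected well above background in every sample.

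The A+/G+ arrays shared 1 slide and the A-/G+ arrays the other, and an effect of the slide cannot be told apart from one of the fraction. The signals were also dimmer on the A-/G+ arrays. The 75th percentile of the intensity before normalization was 332 to 334 in A+/G+ and 56.6, 113 and 251 in A-/G+, and the number of probes well above background was 26478 to 26664 and 18349 to 24738. The part of this gap in the differences was not tested. In sorted fractions, fewer cells of a type and less RNA per cell cannot be told apart.

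The 60-base probes show which part of each transcript was read. For the genes on which the results turn, the first 30 bases of the probe are printed 5′ to 3′ in the sense of the transcript, as the scanner files give them.
Aldh1a1: gactagttgtgacttaagctctgtccctca
Aldh1a2: aaccagctagctcccttcaacccacagtat
Crabp2: ctgtctctctggcctctactccttatcctt
Rbp4: tccctgaaagatgtttgaggcttgggattc
Rarb, probe 1: gctttctatgttcatatactgtttaccttt
Rarb, probe 2: aattctgaaggacatgaacccttgacccca
Rarb, probe 3: tattgagcctgtttgcacacactcaccacc
Cyp26b1: gttcgtgtgtctcgttgtggtagcattaat
On the mm9 build, the whole probes lie at chr19:20717764-20717823 on the plus strand for Aldh1a1, chr9:71143931-71143990 on the plus strand for Aldh1a2, chr3:87757207-87757266 on the plus strand for Crabp2, chr19:38191120-38191179 on the minus strand for Rbp4 and chr6:84521952-84522011 on the minus strand for Cyp26b1. The Rarb probes lie on the minus strand at chr14:17263367-17263426, chr14:17264648-17264707 and chr14:17651424-17651483. Probes 1 and 2 begin at bases 2701 and 1420 of the same Rarb transcript, and probe 3 at base 36 of an mRNA of the beta 1 isoform. The remaining probes lie at chr7:73535785-73535844 on the minus strand for Aldh1a3, and on the plus strand at chr9:54616192-54616251 for Crabp1 and chr9:58001701-58001760 for Stra6. All are transcript sequence by the design of the array, and whether they lie in coding or untranslated parts was not determined. The probes of the Aldh1a genes shared at most 6 bases in a row, and those of Crabp1 and Crabp2 shared 5.

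Most probes of the synthesis, binding and receptor genes read higher in A+/G+ and the degrading enzyme Cyp26b1 was higher in A-/G+. Differences are given as A+/G+ minus A-/G+ on the scale of quantile normalized log2 signal, and adjusted p-values are those of limma after Benjamini-Hochberg adjustment over all probes. At an adjusted p of at most 0.05, 5 of the 11 probes (Aldh1a1, Aldh1a3, Crabp2, Rbp4 and Rarb probe 2) were higher in A+/G+, where 4.65% of all probes were. By the same limit 1 of the 11, Cyp26b1, was higher in A-/G+, where 4.64% of all probes were. With medians also at least 4-fold apart, the limits named as "both limits" from here on, 4 of the 11 were higher in A+/G+ (Aldh1a1, Aldh1a3, Crabp2 and Rbp4) against 1.53% of all probes, and 0 of the 11 were higher in A-/G+ against 0.399%. Of these 4, Aldh1a3 was below detection in A-/G+, so that a 4-fold gap was measured for only 3. The 5 probes past the adjusted p limit in A+/G+ became 1 (Rbp4) with the methods' t-test after the same adjustment, and 0, 1 and 1 without A+/G+ replicates 1, 2 and 3, and 2 without A-/G+ replicate 2. The genes were chosen with earlier results of these data known, so that these counts are a description.

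Read without a model, the same normalized values gave the same order, so that these counts restate the differences. All 3 A+/G+ arrays lay above all 3 A-/G+ arrays for 8 of the 11 probes, which was the case for 12.7% of all probes. The reverse held for 1 of the 11, Cyp26b1, and for 24.3% of all probes. Both shares are over all probes, dim ones included, and why they are unequal was not tested. The 2 probes that overlapped were those of Stra6 and Rarb probe 3. The median difference was 1.65 over the 11 probes and -0.04 over all probes. With 3 arrays against 3, an exact two-sided permutation test cannot give a p below 0.1, and it gave 0.1 for each of the 9 probes without overlap.

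**Figure D1:**
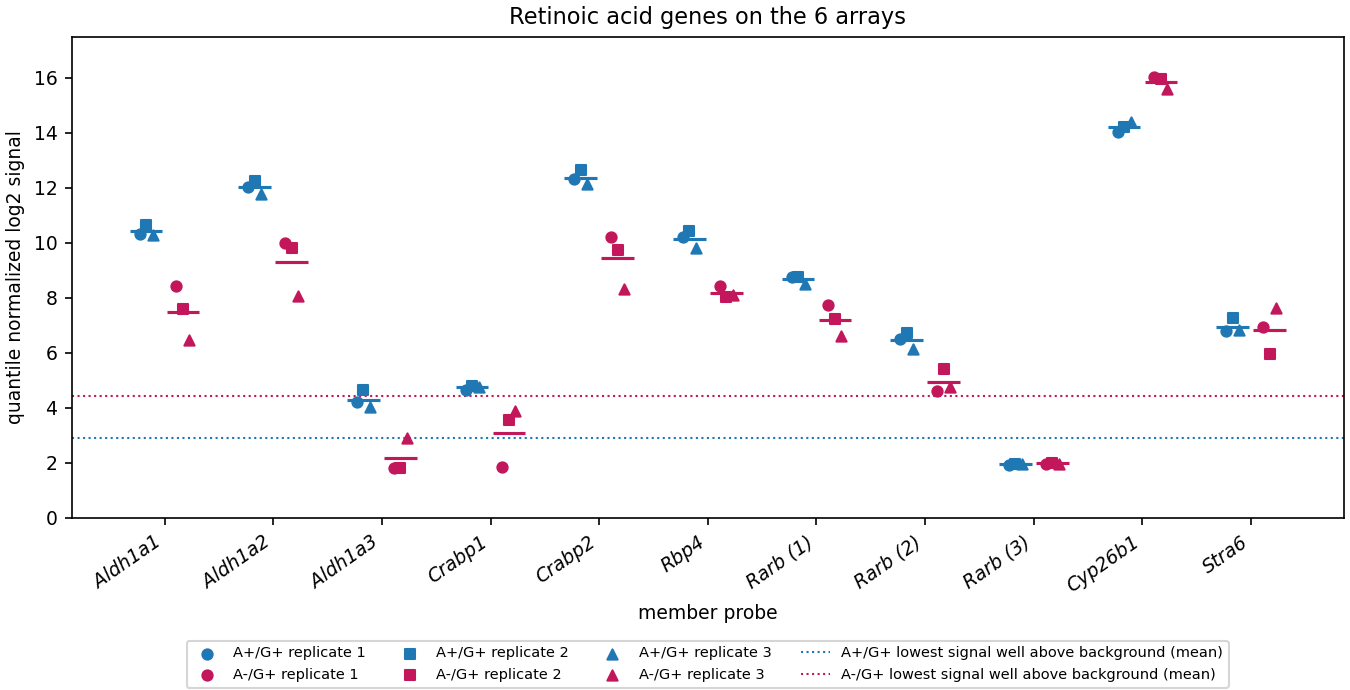
Quantile normalized log2 signal (y axis) of each member probe (x axis) on the 6 arrays, with A+/G+ in blue, A-/G+ in red, a symbol for each replicate and bars at the means. Dotted lines mark, for each fraction, the mean detection level, taken as the dimmest probe that an array read well above background. Aldh1a1, Aldh1a2, Crabp2, Rbp4 and Rarb probes 1 and 2 sit higher in A+/G+, Cyp26b1 sits higher in A-/G+, and Rarb probe 3 lies below both lines.

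The retinaldehyde dehydrogenases make the last step to retinoic acid. The log2 signal of Aldh1a1 was 10.33, 10.67 and 10.29 on the A+/G+ arrays and 8.45, 7.58 and 6.46 on the A-/G+ arrays. The groups did not overlap, and the A-/G+ arrays were spread about as far from each other as the nearest of them was from A+/G+. The A+/G+ mean was 10.43 ± 0.21 (SD, n = 3) and the A-/G+ mean 7.49 ± 0.99 (SD, n = 3), a difference of 2.93 with an SE of 0.529, a 95% confidence interval of 1.57 to 4.3 and a limma adjusted p of 0.0375, and the medians were 6.75-fold apart. The call was lost without A+/G+ replicate 1, 2 or 3 (adjusted p = 0.122, 0.138 and 0.126) and without A-/G+ replicate 2 (adjusted p = 0.0983).

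Aldh1a2 encodes the main retinaldehyde dehydrogenase of the early embryo. Its log2 signal was 12.05, 12.26 and 11.77 in A+/G+ and 10, 9.83 and 8.08 in A-/G+. The lowest A+/G+ array was above the highest A-/G+ array, and A-/G+ replicate 3 stood below the other two of its fraction. The difference was 2.72 (SE 0.567, 95% confidence interval 1.26 to 4.19) with medians 4.67-fold apart, and it did not pass the limit, with a limma adjusted p of 0.0523. It passed without A-/G+ replicate 3, where the difference was 2.11 and the adjusted p 0.00987, and with each array shifted to its 75th percentile (adjusted p = 0.0437).

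Aldh1a3, which encodes the third enzyme of the family, was dim. Its log2 signal was 4.22, 4.65 and 4.03 in A+/G+, where it was well above background on all 3 arrays, and 1.82, 1.81 and 2.92 in A-/G+, where it was well above background on none. The A-/G+ values therefore give only an upper bound, and the A+/G+ mean of 4.3 ± 0.32 (SD, n = 3) lay below the mean detection level of the A-/G+ arrays (5.19, 4.45 and 3.65), so that no fold was computed. The probe passed both limits as a fitted value (difference 2.12, limma adjusted p = 0.0354), but the difference was 0.33 with the normexp background correction and 1.13 with the 75th percentile shift, with an adjusted p of 0.052 in the latter. It did not pass without any 1 of the A+/G+ arrays (adjusted p = 0.113, 0.123 and 0.104) or without A-/G+ replicate 1 or 2 (adjusted p = 0.0862 and 0.0994).

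The intracellular binding proteins were not measured equally firmly. Crabp2, whose product hands retinoic acid to nuclear receptors, read 12.32, 12.67 and 12.14 in A+/G+ and 10.23, 9.76 and 8.33 in A-/G+ on the log2 scale. As with Aldh1a2, the groups were apart and A-/G+ replicate 3 was the lowest array. The difference was 2.94 (SE 0.534, 95% confidence interval 1.56 to 4.32, limma adjusted p = 0.0381), with medians 5.93-fold apart. It did not pass without A+/G+ replicate 1, 2 or 3 (adjusted p = 0.126, 0.141 and 0.122) or without A-/G+ replicate 2 (adjusted p = 0.0876).

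Crabp1, which encodes the second cellular retinoic acid binding protein, read 4.66, 4.81 and 4.76 in A+/G+ and 1.85, 3.55 and 3.88 in A-/G+, and no A-/G+ array read it well above background. Each A-/G+ array was given the larger of its Crabp1 value and its detection level, and the mean A+/G+ signal was 1.18-fold above the mean of these. This is not a strict bound. On A-/G+ replicate 3 the undetected probe read 3.88, above the detection level of that array (3.65). All its A+/G+ values also lay below the detection level of A-/G+ replicate 1 (5.19), against which there is no bound. The fitted difference of 1.65 did not pass the limit (limma adjusted p = 0.166), passed without A-/G+ replicate 1 (1.13, adjusted p = 0.0337) and with the 75th percentile shift (0.95, adjusted p = 0.0462), and was 0.39 with the normexp correction.

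Rbp4, the gene of the retinol carrier, had the tightest A-/G+ values among the members higher in A+/G+ detected on every array. The log2 signal was 10.21, 10.44 and 9.81 in A+/G+ and 8.45, 8.05 and 8.09 in A-/G+. The gap between the groups was larger than the range within either. The A+/G+ mean was 10.15 ± 0.31 (SD, n = 3) and the A-/G+ mean 8.2 ± 0.22 (SD, n = 3), a difference of 1.95 (SE 0.204, 95% confidence interval 1.43 to 2.48, limma adjusted p = 0.0114) with medians 4.35-fold apart. It passed the adjusted p limit without any 1 array except A+/G+ replicate 1 (adjusted p = 0.0543).

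Stra6, the gene of the receptor for the Rbp4 product, showed no difference beyond the spread of the arrays. It read 6.78, 7.27 and 6.82 in A+/G+ and 6.93, 5.97 and 7.63 in A-/G+. The highest and the lowest array were both A-/G+. The difference was 0.11 with a 95% confidence interval of -1.07 to 1.29 (limma adjusted p = 0.901), so that a change either way within that interval could have been missed, and its sign turned without A+/G+ replicate 2 (-0.05) or A-/G+ replicate 2 (-0.32).

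Rarb encodes a nuclear receptor for retinoic acid, and its probes did not all behave alike. Probe 1 read 8.76, 8.76 and 8.49 in A+/G+ and 7.76, 7.24 and 6.61 in A-/G+. Its difference of 1.47 (SE 0.315, 95% confidence interval 0.65 to 2.28) did not pass (limma adjusted p = 0.0566), and it passed without A-/G+ replicate 1 (1.77, adjusted p = 0.0403) and without A-/G+ replicate 3 (1.17, adjusted p = 0.0374). Probe 2 read 6.51, 6.71 and 6.14 in A+/G+ and 4.61, 5.42 and 4.76 in A-/G+, where it was well above background on 2 arrays.

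The groups were apart for both of these Rarb probes. The difference of probe 2 was 1.53 (SE 0.274, 95% confidence interval 0.82 to 2.23, limma adjusted p = 0.037) with medians 3.38-fold apart, and it was 0.71 with the normexp correction. It passed only without A-/G+ replicate 2 among the arrays left out in turn (adjusted p = 0.0335), with adjusted p-values of 0.128, 0.132 and 0.0892 without A+/G+ replicates 1, 2 and 3, and of 0.0859 and 0.064 without A-/G+ replicates 1 and 3. Probe 3, for the beta 1 isoform, read 1.93, 1.96 and 1.97 in A+/G+ and 1.97, 2 and 1.97 in A-/G+, and stayed below detection on each of the 6 arrays, so that it gives no difference.

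Cyp26b1 encodes an enzyme that breaks down retinoic acid, and it was the only member higher in A-/G+ on all arrays. The log2 signal was 14.02, 14.22 and 14.39 in A+/G+ and 16.02, 15.98 and 15.59 in A-/G+. The A+/G+ mean was 14.21 ± 0.19 (SD, n = 3) and the A-/G+ mean 15.87 ± 0.24 (SD, n = 3), a difference of -1.66 (SE 0.163, 95% confidence interval -2.08 to -1.24, limma adjusted p = 0.00986). The medians were 3.39-fold apart, which is short of the 4-fold limit. The call was lost without A+/G+ replicate 2 (adjusted p = 0.0523).

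The size of the Cyp26b1 difference depended on the scaling. With each array shifted to its 75th percentile it was -2.06 and the medians were 4.44-fold apart, but that scaling also moved the median of all probes from -0.04 to -1.02, and with it the split of probes past both limits went from 851 probes for A+/G+ and 222 for A-/G+ to 604 and 938. Before any normalization the intensities of Cyp26b1 were 24978.8, 31130.6 and 32556.7 in A+/G+ and 24310.2, 46694.1 and 69318.6 in A-/G+. The groups overlapped there, since A-/G+ replicate 1, the dimmest array, had the lowest value. No member spot was saturated.

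The Aldh1a and binding protein genes were far apart between the fractions before any normalization as well. The intensity of Aldh1a1 was 2089, 2787.7 and 2074.1 in A+/G+ and 97.1, 108.9 and 112.9 in A-/G+. That of Crabp2 was 8127.7, 11057 and 7340.6 in A+/G+ and 336.6, 509.8 and 409.6 in A-/G+. These values hold the brightness of the whole array too.

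A ratio of 2 probes of the same array cancels a brightness that multiplies both probes alike. The log2 ratio of Aldh1a2 to Cyp26b1, the genes of a synthesizing and a degrading enzyme, was computed from the intensities before normalization. It was -1.88, -1.89 and -2.5 in A+/G+ and -6.43, -6.45 and -7.65 in A-/G+. The arrays of the fractions were apart, with a difference of 4.75 between the means (4.38 after quantile normalization).

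For the other members detected on every array, the difference of the ratio to Cyp26b1 before normalization was 4.98 for Aldh1a1, 4.94 for Crabp2, 4 for Rbp4, 3.54 for Rarb probe 1 and 2.14 for Stra6. Each of these values also holds the opposite difference of Cyp26b1 itself. An unchanged gene would thus show a positive value, and Stra6 differed by only 0.11 on its own after quantile normalization. Cyp26b1 was taken as the denominator after it had been seen to differ in the other direction, so that these ratios restate the differences above and are a description. They are free only of a brightness shared by both probes. Within A-/G+ the ratio of Aldh1a1 before normalization was -7.97, -8.74 and -9.26 for replicates 1, 2 and 3, and so was lower on the brighter arrays. Whether brightness acted alike on both probes was not tested.

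**Figure D2:**
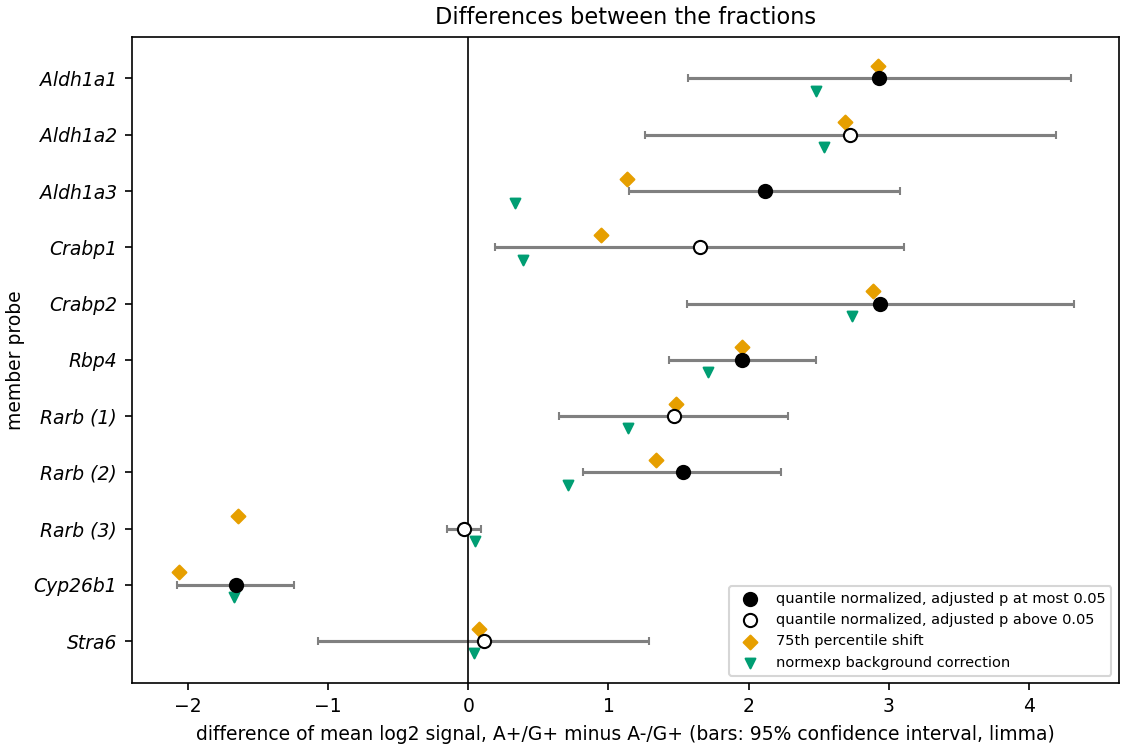
Difference of mean log2 signal, A+/G+ minus A-/G+ (x axis), of each member probe (y axis). Circles are quantile normalized values with the 95% confidence interval of limma, filled where the adjusted p is at most 0.05, diamonds the 75th percentile shift and triangles the normexp correction. Aldh1a1, Aldh1a2, Crabp2 and Rbp4 stay between 1.71 and 2.94 under the 3 settings, while Aldh1a3 falls from 2.12 to 0.33 and the undetected Rarb probe 3 moves with the scaling.

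Genes with a profile most like those of the members were taken from 13376 genes that were well above background on at least 3 arrays, by the root mean square difference of log2 signals, each centered on its own mean over the 6 arrays. For Aldh1a1 they were Slc6a20a (0.064), C1qtnf2 (0.073) and Sidt1 (0.123). For Crabp2 they were C1qtnf2 (0.094), Slc6a20a (0.113) and the complement gene C2 (0.129). Aldh1a1 and Crabp2 thus had 2 of their 3 nearest genes in common. For Rbp4 they were Lgals1 (0.126), Ahnak (0.126) and Olfml3 (0.138), and for the dim Aldh1a3 they were Erbb4 (0.12), Chrdl2 (0.148) and Dse (0.177).

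Markers of meningeal fibroblasts were higher in A+/G+, as several members were. All 10 markers of that list, among them the collagen genes Col1a1, Col1a2 and Col3a1, had the 3 A+/G+ arrays above the 3 A-/G+ arrays, 3 of the 10 passed the adjusted p limit and the median difference was 2.09. Col1a1, Col1a2 and Col3a1 differed by 1.64, 1.61 and 2.12 without passing the limit, and 8 of the 10 markers were detected on each of the 6 arrays. The summed normalized intensity of the list was 86800, 97300 and 80800 in A+/G+ and 41300, 28300 and 13600 in A-/G+.

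From the highest array to the lowest, that sum ran in the order A+/G+ 2, 1 and 3, then A-/G+ 1, 2 and 3. The same order held in 3 of the 11 member probes, those of Aldh1a1, Aldh1a2 and Crabp2, and in 0.418% of all probes (233 of 55681). It requires all 3 A+/G+ arrays above all 3 A-/G+ arrays, which held for 8 of the 11 member probes and for 7085 of all probes. The share of 0.418% thus also counts the difference between the fractions given above. Within A-/G+ alone, the order of the 3 arrays was that of the sum for 5 of the 11 member probes, those of Aldh1a1, Aldh1a2, Crabp2, Rarb probe 1 and Cyp26b1, the member that was higher in A-/G+, and for 30.8% of all probes. That order is also the reverse of the brightness of these arrays (75th percentiles 56.6, 113 and 251). Before normalization, A-/G+ replicates 1, 2 and 3 read Aldh1a1 at 97.1, 108.9 and 112.9 and Aldh1a2 at 281.8, 535.1 and 346.3. Crabp2 was at 336.6, 509.8 and 409.6, so that replicate 3 was not the lowest for these genes. The part of the brightness in this order was not tested. The part of meningeal cells in the difference of these members was not tested. Within each fraction the order was not particular to the meningeal list. The summed granule cell lineage markers had it too, at 18600, 20000 and 17100 in A+/G+ replicates 1, 2 and 3. They were at 30700, 28400 and 24200 in A-/G+, above A+/G+. The mean centered log2 signal of that list did not have it in A-/G+ (0.09, -0.45 and 0.48).

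**Figure D3:**
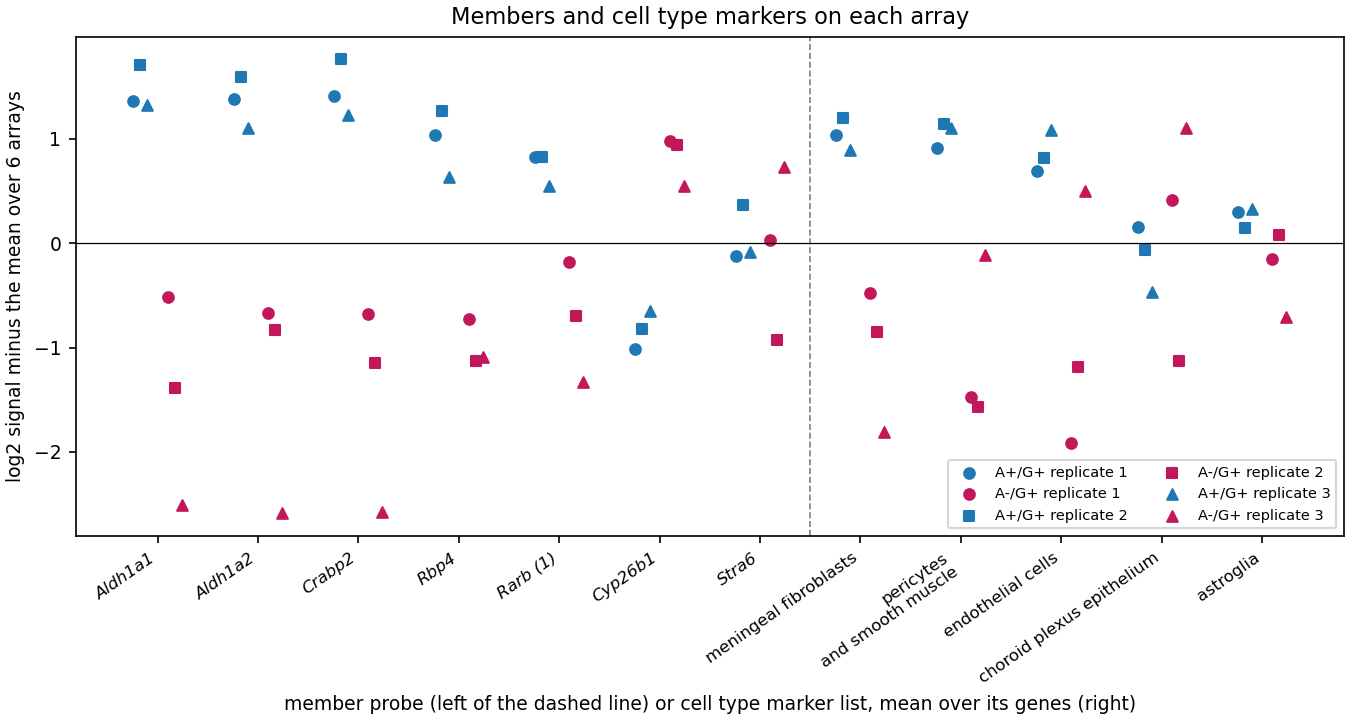
Log2 signal minus its mean over the 6 arrays (y axis) for the member probes well above background on all arrays and, right of the dashed line, for the mean of 5 cell type marker lists. Points are single arrays, A+/G+ in blue and A-/G+ in red, with a symbol for each replicate. On this quantile normalized scale, Aldh1a1, Aldh1a2, Crabp2 and the meningeal fibroblast list share the order of the arrays, with A-/G+ replicate 3 lowest, whereas the choroid plexus list overlaps between the fractions.

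Other cell types were also represented, and their part in the results was not tested. The pericyte and smooth muscle markers (Rgs5, Kcnj8, Abcc9 and others) summed to 6080 to 6170 in A+/G+ and 4120 to 4360 in A-/G+, and 3 of 7 passed as higher in A+/G+. Their median difference was 2.09, as for the meningeal list, while the brightest of them, which weighs most in the sum, had a mean of 11.84 in both fractions. The multiciliated ependymal markers (Foxj1, Ccdc153, Tmem212 and others) summed to 7140 to 12000 and 581 to 2170, with 4 of 6 higher in A+/G+. The Purkinje cell markers (Pcp2, Calb1, Car8 and others) summed to 4940 to 13600 and 1590 to 2010, with 4 of 6 higher in A+/G+. The median difference was 3.47 for the ependymal list and 3.67 for the Purkinje list.

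The endothelial markers summed to 7810 to 11700 in A+/G+ and 1550 to 8030 in A-/G+, with 1 of 8 higher in A+/G+ and a median difference of 1.66. Those of choroid plexus epithelium, a tissue that also handles retinol, summed to 25100 to 39600 and 23800 to 57400, and 0 of 8 passed in either direction in limma (median difference -0.34). Microglial markers summed to 332 to 987 and 550 to 693, with 1 of 8 higher in A+/G+ and a median difference of 0.04. Granule cell lineage markers summed to 17100 to 20000 and 24200 to 30700, with 1 of 6 higher in A-/G+ and a median difference of -0.15. That list was split. Atoh1, Neurod1 and Barhl1 differed by 1.29, 0.31 and 1.10 without passing, and the rest of the list had negative differences. Of the astroglial markers, which summed to 152000 to 164000 and 134000 to 212000, 3 of 10 passed with A+/G+ above, and 1 with A-/G+ above (median difference 0.16). This list holds the genes of both antigens used for the sort. The gene of the ACSA-2 antigen was 1 of the 3 (2.16, limma adjusted p = 0.00725). Slc1a3, the gene of GLAST, differed by -1.19 without passing (limma adjusted p = 0.0733).

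The wider retinoid pathway did not move one way. Of 50 further genes in 6 lists, all on the array and each read at its brightest probe, 8 were higher in A+/G+, 6 were higher in A-/G+ and 36 did not pass, with a median difference of 0.01. Over all probes, 4.65% and 4.64% passed, but these are dimmer. Of the 50 genes, 32 were well above background on all 6 arrays, against 32.3% of all probes. In a fit of only the 25743 probes well above background on at least 3 arrays, 3206 and 3385 passed. The counts of the 50 genes are thus not read as a result. Both limits were passed by 4 genes, all higher in A+/G+, where 1.53% of all probes passed them, and 11 genes were below detection on every array. All 14 genes that passed kept their direction with the 75th percentile shift and the normexp correction. Of the 8 higher in A+/G+, 5 and 7 still passed, and of the 6 higher in A-/G+, 4 and 6.

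Among 7 genes of retinol transport and storage, 1 passed, as higher in A+/G+. Lrat, which encodes the enzyme that esterifies retinol for storage, differed by 1.52 (limma adjusted p = 0.0146) but was read well above background on a single array, 1 of the 3 of A+/G+, and differed by 0.42 with the 75th percentile shift and by 0.21 with the normexp correction. Ttr, the gene of the protein that carries the Rbp4 product in blood and a gene of the choroid plexus, differed by -0.48 (limma adjusted p = 0.541). Rbp2 and Rbp7 did not pass either (1.54 and -0.27, adjusted p = 0.0682 and 0.752).

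Of 12 retinol and retinal redox enzymes, 1 passed. Dhrs3, which encodes a reductase that turns retinal back into retinol, was lower in A+/G+, at 12.71 ± 0.13 (SD, n = 3) against 13.81 ± 0.32, a difference of -1.10 (limma adjusted p = 0.0326). Rdh10, whose product makes the retinal that the Aldh1a enzymes use, differed by 0.70 (limma adjusted p = 0.146). The remaining Cyp26 genes, Cyp26a1 and Cyp26c1, were not well above background on any of the 6 arrays, so that Cyp26b1 was the only gene of the family with a measured level.

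Of 7 nuclear receptor and carrier genes, 2 passed in favor of A+/G+ and 1 in favor of A-/G+. The receptor gene Rarg differed by 0.70 (limma adjusted p = 0.00893) and the fatty acid and retinoic acid carrier gene Fabp5 by 0.72 (limma adjusted p = 0.0207). The retinoid X receptor gene Rxrg differed by -1.35 (limma adjusted p = 0.049), and Rara and Rxrb by 0.15 and -0.07 without passing (limma adjusted p = 0.32 and 0.815). The probes of Rxra disagreed, at -1.92 and 0.61, and neither passed (limma adjusted p = 0.0508 and 0.631). Of 6 coregulators 1 passed, Ncor1, the gene of a corepressor, at -0.47 (limma adjusted p = 0.0379), and its 3 other probes, at -1.17 to 0.37, did not pass.

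Of 16 genes listed as responding to retinoic acid, 5 were higher in A+/G+, 3 were higher in A-/G+ and 8 did not pass. The homeobox gene Meis2 differed by 4.81 (limma adjusted p = 0.0187) and by 2.39 with the normexp correction, and only 1 of the 3 A-/G+ arrays detected it.

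The remaining response genes that were higher in A+/G+ differed by 1.88 to 2.46. They were Rarres2, which encodes the chemoattractant chemerin (2.46), Zfp503, which encodes a zinc finger protein (2.32), Nr2f2, which encodes an orphan nuclear receptor (2.01), and Tgm2, which encodes a transglutaminase (1.88). The genes higher in A-/G+ were Nav2 (-1.88, or -1.07 with the normexp correction), whose 3 dimmer probes did not pass, Rai14 (-1.38) and Rai1 (-0.87), whose 2 further probes passed in the same direction. Many of these genes respond to other signals too, and a list of this kind says nothing about the amount of retinoic acid.

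**Figure D4:**
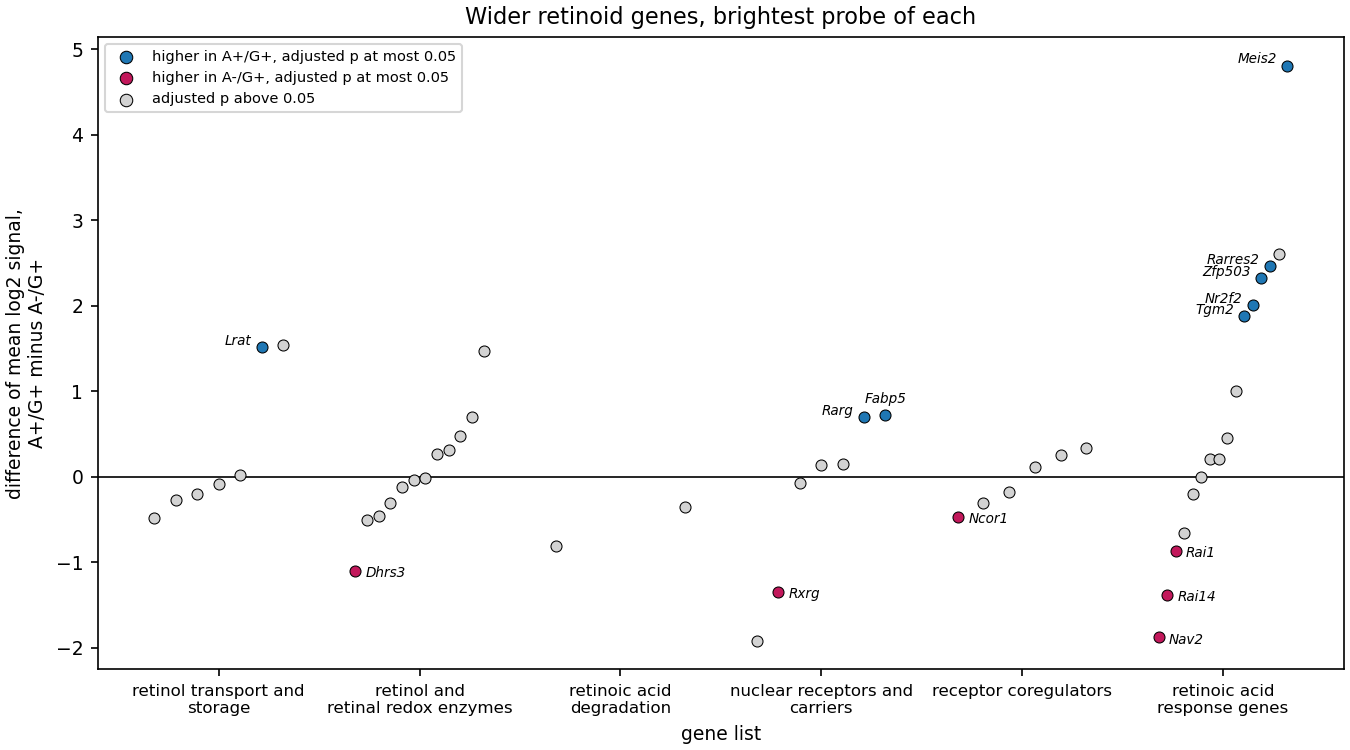
Difference of mean log2 signal, A+/G+ minus A-/G+ (y axis), of the brightest probe of 50 wider retinoid genes in 6 lists (x axis). Points are genes, sorted within a list, blue or red where the limma adjusted p is at most 0.05 (named) and gray where it is not. The 8 blue genes reach from 0.70 to 4.81 (Meis2, which is at 2.39 with the normexp correction) and the 6 red ones from -0.47 to -1.88.

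The promoter windows were read for direct repeats, the arrangement of half-sites to which retinoic acid receptors bind. The half-site AGGTCA and its variants, which are AGTTCA, then also GGGTCA, and lastly GGTTCA, were searched on both strands as repeats with a spacer of 1, 2 or 5 bases, in 32851 RefSeq windows of the GRCm38.p6 build that run from 250 bases before to 50 bases after a start. A repeat with a spacer of 5 was found in 0.0974% of all windows (32), one with a spacer of 1 in 0.222% and one with a spacer of 2 in 0.268%. Windows were given for 7 of the 9 members, 12 in all, and 1 of the 12 held a match.

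That window is the one of Rarb, and it is shown because Rarb is the receptor gene among the members. The stretch at chr14:16575477-16575569 on the minus strand, in the sense of the gene and with both half-sites in capitals, reads as follows.
Rarb promoter: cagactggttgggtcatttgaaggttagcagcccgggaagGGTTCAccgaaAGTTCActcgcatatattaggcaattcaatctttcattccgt
The repeat has a spacer of 5 and lies at bases -53 to -37 from the start, at chr14:16575513-16575529. Outside the members, the window of Cyp26a1, a gene without signal here, held a repeat with the same spacer at bases -32 to -16 on the opposite strand. A match in letters is a description that by itself shows neither binding nor its absence. A window without one says only that these letters are not in it.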

How the data were processed

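The 6 samples were hybridized to 1-color Agilent arrays. The authors deposited the scanner output, in which Feature Extraction 10.7.3.1 gives background-corrected intensity, and a log2 table that they had quantile normalized (38 empty cells, used as an alternative). The deposited intensities were taken to log2, without control spots or those the software marked as outliers, and were quantile normalized between arrays. The test was limma 3.58.1 (R 4.3.3), fitted to all 55681 probes and first tested on simulated data. No dim probe was removed. A probe well above background on no array of a fraction has only an approximate bound there. All probes of the 9 members were named. From the wider list the genes past the adjusted p limit and the families of the members were named, each at the probe brightest over the 6 arrays, and from each marker list at most the first 3. Likeness lists hold 3 genes for each probe past both limits. Some genes of the wider list are not reported here. Members and lists were chosen with earlier results of these data known. Replicate numbers were not taken to pair the arrays. Slide and fraction coincide, which leaves no fit with the slide as a block. The number of arrays limits the precision. The paper gives a younger age range than the labels and, for its wild-type mice in general, another strain background (C57BL/6), and the labels were used here.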

Additional observations from a re-analysis of the deposited data

How the results depend on the processing

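The direction of the differences was the same under all 14 alternatives for Aldh1a1, Aldh1a2, Aldh1a3, Crabp1, Crabp2, Rbp4, Rarb probes 1 and 2 and Cyp26b1. It reversed for Stra6 without A+/G+ replicate 2 (-0.05) and without A-/G+ replicate 2 (-0.32, the range with 1 array left out being -0.32 to 0.5), and for the undetected Rarb probe 3 with the normexp correction (0.05). Rbp4 and Cyp26b1 passed the adjusted p limit under 12 of 14 alternatives, Aldh1a1 and Crabp2 under 8, Rarb probe 2 under 7, Aldh1a3 and Rarb probe 1 under 6, Aldh1a2 under 5, Crabp1 under 2 and Stra6 under 0.

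With the 75th percentile shift, 1 member probe (Cyp26b1) was higher in A-/G+ by both limits, and over all probes 1227 passed the adjusted p limit in A+/G+ and 938 passed both limits in A-/G+. With the normexp correction 234 and 48 of all probes passed both limits in A+/G+ and A-/G+. With the methods' t-test, 1 member probe (Rbp4) passed the adjusted p limit in A+/G+ and 1 both limits, and all probes gave 1351 and 1197 by adjusted p and 487 and 121 by both limits. With medians at least 2-fold apart, 1 member probe was higher in A-/G+, and 1797 and 1340 of all probes passed.

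With the replicate number as a block, limma called 0 probes by either limit and in either direction, members included, although 11671 probes and 9 of the 11 member probes had an unadjusted p within 0.05 (12974 and 9 without the block). The correlations of same-numbered arrays were 0.2, 0.11 and -0.11, and not every array correlated best with its own number, so that the numbers were not taken to pair the arrays.

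Leaving out 1 array at a time, member probes past the adjusted p limit numbered 0 to 6 in A+/G+ and 0 to 1 in A-/G+, and past both limits 0 to 4 in A+/G+. All probes numbered 825 to 4469 and 409 to 4622 by adjusted p, and 328 to 1448 and 75 to 481 by both limits. The dimmer A-/G+ arrays limit what can be said of Aldh1a3, Crabp1 and Rarb probe 3.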
